A study of Mus musculus with 21 samples.

Results

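Left ventricular RNA from pressure-overloaded mouse hearts that had received semaglutide (Sema) for 8 weeks was compared with RNA from pressure-overloaded hearts that had received vehicle. The comparison used the 3 libraries titled TAC 8W_Sema 8W (TAC 8W + Sema 8W) and the 3 titled TAC 8W (TAC 8W), chosen by their columns in the table of raw counts, which makes 6 of the 21 libraries of the series. All mice in both groups were wild-type male C57BL/6J and had 8 weeks of transverse aortic constriction (TAC), a surgical narrowing of the aorta that raises the load on the left ventricle. TAC 8W + Sema 8W mice received Sema by daily intraperitoneal injection from surgery to the end of the 8 weeks, at 60 per kg per day, where the labels give mg and the study's methods µg, and TAC 8W mice received vehicle. The treated columns carry the word "high", which was read as the name of this dose. The question was which genes beyond the extracellular matrix and respiratory chain lists differed between the groups, and how far the libraries themselves differed by the GC content and length of genes. Neither the labels nor the methods say that each library came from a separate mouse, so the p-values measure the spread between libraries.

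Semaglutide is a long-acting agonist of the glucagon-like peptide 1 receptor, a G protein-coupled receptor that signals through cAMP and is best known for its action on pancreatic beta cells and on appetite. Loaded cardiomyocytes grow, switch part of their fuel use and induce early transcription factors and chaperones, while heart tissue also runs a circadian clock in which Bmal1 (gene Arntl) and Clock drive the genes of their own repressors and of output factors such as Dbp. Fasting, glucocorticoids and insulin each act on heart transcription through PPAR, glucocorticoid receptor and FoxO factors. Glp1r, the gene of the receptor that Sema activates, had 0 counts in each of the 6 libraries, and a count of 0 allows up to 3 counts per library.

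Total counts were 11617787 to 14583043 per library in TAC 8W + Sema 8W and 9807498 to 16457091 in TAC 8W, and genes encoded in mitochondrial DNA took 20.2 to 23.2% and 21.3 to 30.1% of them (two-sided exact permutation test, p = 0.3, where the smallest possible p is 0.1). The labels give the cell type as cardiomyocytes and the tissue as heart, and the libraries held markers of several cell types. Marker sums are in CPM, counts scaled to the library total with edgeR's TMM factors, and include listed genes with too few counts to be tested. The 13 cardiomyocyte markers summed to 105000 to 121000 in TAC 8W + Sema 8W and 64200 to 124000 in TAC 8W. In the same order, the 10 fibroblast markers summed to 2390 to 2880 and 1760 to 3520. The 10 endothelial markers summed to 1560 to 1660 and 1040 to 1700, and the 10 macrophage markers to 370 to 685 and 131 to 507. The ranges of each of these lists overlapped between the groups. At low levels, the mesothelial markers did not overlap, at 4.67 to 12.6 CPM with Sema against 13.5 to 38.5 CPM in TAC 8W. Nor did the lymphocyte markers, at 4.02 to 7.84 CPM with Sema against 1.87 to 3.86 CPM in TAC 8W. Of the cell type markers, the endothelial claudin gene Cldn5 alone passed the test, lower with Sema. It did not pass with the GC content and length trend described below removed. In such tissue RNA, fewer cells of a type and less RNA per cell cannot be told apart.

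With edgeR's quasi-likelihood test, 314 of 11655 genes differed between the treated and the vehicle libraries at an adjusted p under 0.05, which is 2.69% of the genes tested. Of these, 69 were higher (0.592%) and 245 lower (2.1%) with Sema, and none of the 314 had CPM values that overlapped between the groups. The median log2 fold change of all genes tested was -0.004, and 2612 genes had an unadjusted p under 0.05. The count rested on single libraries to a large extent. Leaving out TAC 8W + Sema 8W replicate 1, 2 or 3 gave 34, 131 or 9 genes, and leaving out TAC 8W replicate 1, 2 or 3 gave 317, 1181 or 33. The genes called in all 6 of these fits numbered 7, with 5 higher (Dbp, Klf15, Klhl38, Pim3 and Bcl2l1) and Arntl and Fos lower, and 24 genes were called in at least 5 of the 6. For every other gene described here as changed, leaving out at least 1 library ended the call.

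Genes with low GC content had fewer counts in the treated libraries. Across genes, the count of a library relative to the mean of the 6 correlated with the GC content of the gene's exons at a Spearman rho of 0.266, 0.129 and 0.61 in TAC 8W + Sema 8W replicates 1 to 3, against -0.316, -0.333 and -0.437 in TAC 8W replicates 1 to 3. The sign was the same in all libraries of a group and opposite between the groups, with a mean of 0.335 ± 0.248 against -0.362 ± 0.0655 (SD, n = 3 each, two-sided exact permutation test over libraries, p = 0.1, the smallest possible). With exon length, rho was -0.44, 0.107 and -0.396 in TAC 8W + Sema 8W and 0.445, -0.073 and 0.27 in TAC 8W, so that replicate 2 of each group went against the other replicates of its group (exact permutation test, p = 0.2). GC content and length were themselves related across genes, with a rho of -0.344.

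The fold changes followed the same trend, with a rho over 11649 genes of 0.526 with GC content and -0.391 with length. In the decile of genes with the lowest GC content (31.9 to 41.8%, 1165 genes), the median log2 fold change was -0.91, with 129 genes lower and 1 higher. Relative to the mean of the 6 libraries, the median gene of this decile stood at -0.203, -0.13 and -0.928 on the log2 scale in TAC 8W + Sema 8W and at 0.644, 0.308 and 0.459 in TAC 8W. In the decile with the highest GC content (57.6 to 74.7%), the median was 0.33, with 13 genes higher and 10 lower. The longest decile of genes had 82 lower and 0 higher. The exons of genes called lower had a median GC content of 41.28% and a median length of 7754 bases, against 53.64% and 2791 bases for genes called higher and 49.81% and 4453 bases for all genes.

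When the trend of each library with GC content and length was removed, 88 genes passed (0.755%), of which 36 were higher and 52 lower, so that the share of higher genes was 40.9% against 22% without the removal. Of the 314 genes, 78 were among these 88, and rho was then -0.01 with GC content and 0.009 with length. The trend and the treatment cannot be told apart with these libraries, since the sign of the trend with GC content differed between the groups in every library. Values with the trend removed are therefore given beside the counts of each list and beside the genes the results turn on. The plot of the trend by deciles of genes shows the 6 libraries apart from each other.

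**Figure D1:**
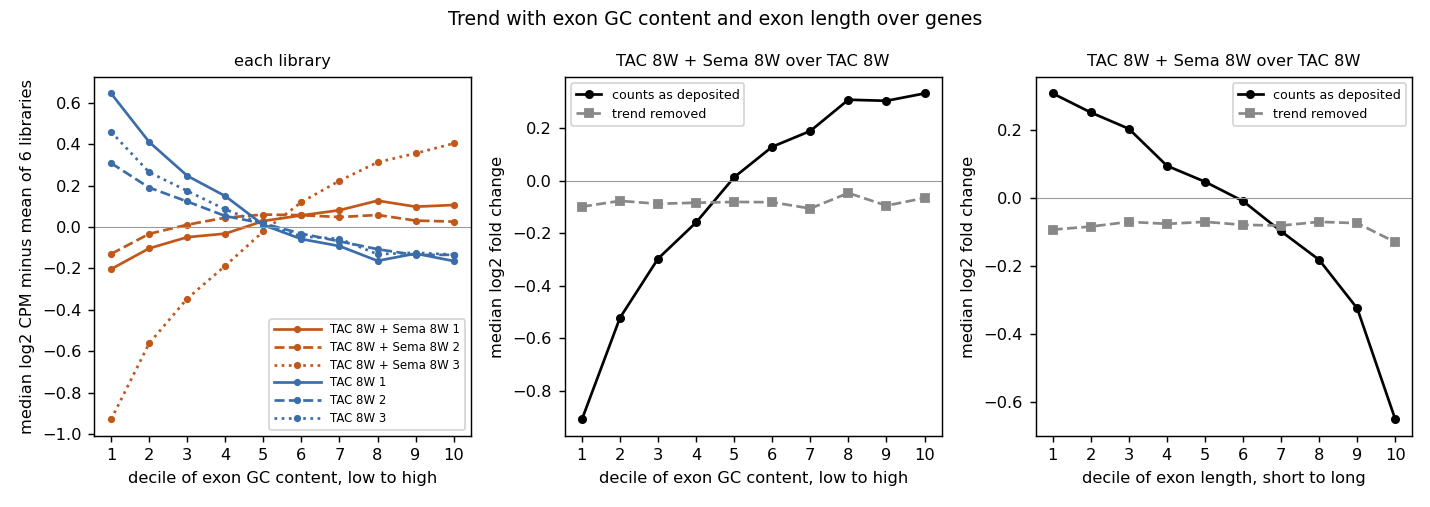
Median deviation of each library from the mean of the 6 libraries on the log2 CPM scale in deciles of genes ordered by exon GC content (left), and median log2 fold change, TAC 8W + Sema 8W over TAC 8W, in deciles by GC content (middle) and exon length (right), with the counts as deposited (black) and with the trend removed (grey). Lines on the left are the 3 TAC 8W + Sema 8W and the 3 TAC 8W libraries, and at the lowest GC content, the TAC 8W + Sema 8W libraries lie between -0.928 and -0.13 and the TAC 8W libraries between 0.308 and 0.644.

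The genes of the circadian clock changed in both directions. Of the 19 clock and output genes measured, 5 were higher and 3 lower with Sema, 42.1% of the list against 2.69% of all genes, and the median log2 fold change was 0.28, or 0.19 with the trend removed and 0.50 without TAC 8W replicate 1. The genes that rose were Dbp, Tef, Ciart, Cry2 and Nr1d1, which are outputs or repressors that Bmal1 and Clock drive, and those that fell were Arntl, Npas2 and Nfil3. Arntl encodes Bmal1, Npas2 encodes a partner of Bmal1 that can stand in for Clock, and Nfil3 encodes a repressor that binds the same DNA sites as Dbp and Tef. The hour of day at which hearts were collected is not given in the sources used here.

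Dbp, a transcription factor whose level swings widely over the day in many tissues, had 80.6, 65.3 and 114 CPM in TAC 8W + Sema 8W, against 8.04, 10.3 and 7.57 CPM in TAC 8W. The treated libraries were all far above the vehicle libraries, at a log2 fold change of 3.33 ± 0.28 (SE), for which the edgeR adjusted p was 0.00291. Arntl had 2.98, 4.89 and 3.08 CPM in TAC 8W + Sema 8W, against 26.6, 24.1 and 27.2 CPM in TAC 8W. The 3 libraries of each group lay close together, and the log2 fold change was -2.82 ± 0.28 (edgeR adjusted p = 0.00402). Nfil3 had 21.3, 21.04 and 18.2 CPM with Sema, against 59.1, 87.6 and 100 CPM in TAC 8W, a log2 fold change of -2.02 ± 0.25 (edgeR adjusted p = 0.00703). Ciart, which encodes a repressor of the Clock and Bmal1 pair, had 19.7, 15.5 and 19.4 CPM in TAC 8W + Sema 8W and 2.93, 5.27 and 3.54 CPM in TAC 8W (log2 fold change 2.23 ± 0.30, edgeR adjusted p = 0.0102).

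The other clock genes past the test differed less. Nr1d1, which encodes the nuclear receptor Rev-erb alpha that represses Arntl, had 56.7, 60.7 and 65.9 CPM in TAC 8W + Sema 8W, against 34.6, 30.0 and 34.4 CPM in TAC 8W, a log2 fold change of 0.89. Tef and Cry2 were higher by 1.30 and 1.57, and Npas2 fell by 2.27, all with edgeR adjusted p between 0.0267 and 0.0466. The period genes did not pass, with log2 fold changes of 1.80 for Per2, 1.44 for Per3 and 0.46 for Per1 (edgeR adjusted p of 0.0624 for Per2 and 0.0859 for Per3), nor did Cry1 at -0.22. With this trend removed, 6 of the 19 passed, with Dbp at 2.88, Arntl at -2.75, Nfil3 at -2.45 and Ciart at 1.88, while Tef (adjusted p = 0.0576) and Nr1d1 (adjusted p = 0.197) did not. The 8 calls became 3, 4 and 2 without TAC 8W + Sema 8W replicates 1, 2 and 3, and 7, 10 and 3 without TAC 8W replicates 1, 2 and 3. They became 2 when all 21 libraries, or 15 of them, entered the fit, where Arntl was among those lost.

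**Figure D2:**
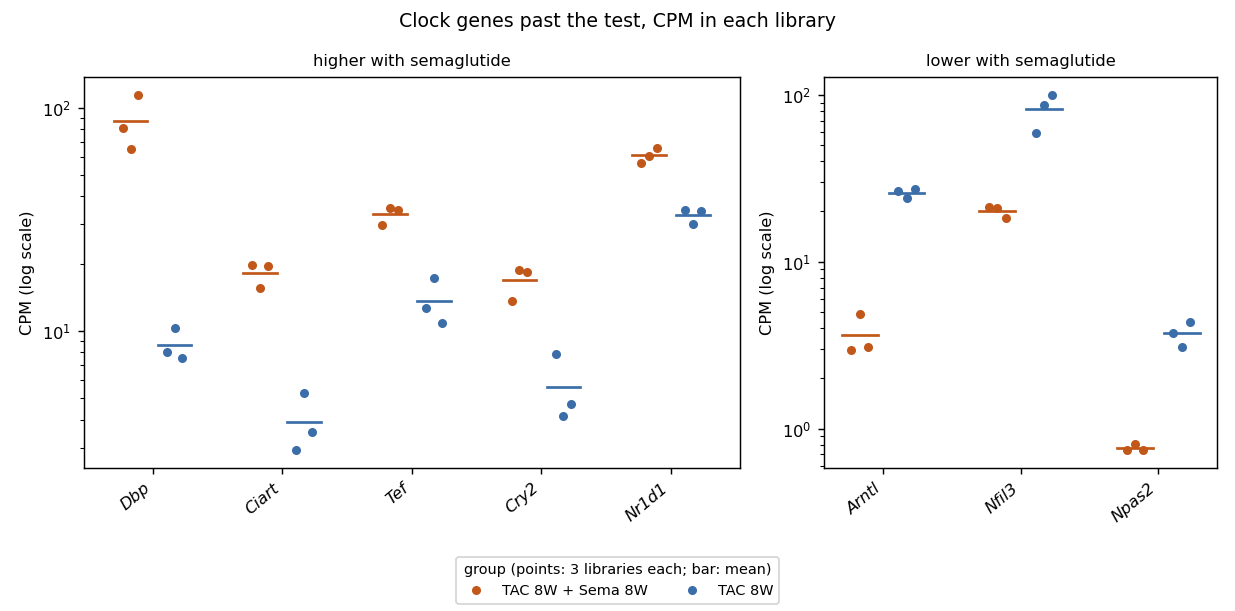
CPM (log axis) of the 8 clock genes past the test, for genes higher (left) and lower (right) with Sema. Points are libraries, 3 per group, and bars are group means. No gene has overlapping groups, and Dbp lies at 65.3 to 114 CPM in TAC 8W + Sema 8W against 7.57 to 10.3 CPM in TAC 8W.

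Since the 4 clock genes with the smallest p moved in opposite directions, the stretches upstream of their start sites are shown to set their letters beside the values above. The sequences come from RefSeq on build GRCm38.p6 and run 5′ to 3′ on the strand of the gene, in lower case, ending before the first annotated transcript start, and capitals mark a motif. Motif distances are counted from the RefSeq start. The printed stretch ends 159, 34 and 23 bases before that start in Dbp, Nfil3 and Ciart, and 0 bases before it in Arntl. The 250 bases before each start were searched on both strands for CACGTG (the E-box that Clock and Bmal1 bind), TGACGTCA (the cAMP response element), its part TGACG, AAAGGTCA (which nuclear receptors such as Rev-erb bind) and TTATGTAA (which Dbp and Nfil3 bind), where every match of TGACGTCA also holds TGACG. The stretch of Dbp is chr7:45704997-45705087 on the plus strand, that of Arntl chr7:113207215-113207464 on the plus strand (the first of 2 starts in the annotation), that of Nfil3 chr13:52981074-52981289 on the minus strand, and that of Ciart chr3:95882252-95882478 on the minus strand.
Ciart: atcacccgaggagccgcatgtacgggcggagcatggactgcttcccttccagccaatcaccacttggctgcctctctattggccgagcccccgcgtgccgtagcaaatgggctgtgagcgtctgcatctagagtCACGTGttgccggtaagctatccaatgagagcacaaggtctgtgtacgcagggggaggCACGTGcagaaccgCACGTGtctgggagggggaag
Nfil3: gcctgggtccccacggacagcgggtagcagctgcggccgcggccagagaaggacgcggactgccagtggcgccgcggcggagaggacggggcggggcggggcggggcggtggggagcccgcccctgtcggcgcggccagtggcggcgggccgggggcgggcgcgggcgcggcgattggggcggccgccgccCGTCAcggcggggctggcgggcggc
Dbp: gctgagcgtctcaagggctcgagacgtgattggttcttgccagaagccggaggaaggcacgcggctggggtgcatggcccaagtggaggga
Arntl: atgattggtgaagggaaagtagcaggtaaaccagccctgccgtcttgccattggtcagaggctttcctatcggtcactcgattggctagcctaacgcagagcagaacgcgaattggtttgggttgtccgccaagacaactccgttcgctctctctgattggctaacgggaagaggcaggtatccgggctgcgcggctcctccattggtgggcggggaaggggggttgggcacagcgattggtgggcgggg

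Ciart had CACGTG at 116, 58 and 44 bases before its start, and such a match was found in 6.02% of the 32851 windows of the same length, with 3 or more in 0.0609%. Nfil3 had TGACG on the reverse strand, printed as CGTCA, at 59 bases before its start, where 17.8% of windows held that motif. Dbp and Arntl had none of the 5 motifs in these windows, which says only that these letters were not there. For the other motifs, the share of windows was 1.55% for TGACGTCA, 1.34% for AAAGGTCA and 0.819% for TTATGTAA. A match is a description of letters and was not tested as a binding site.

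Several immediate early genes, which are switched on within minutes of a stimulus and many of which encode transcription factors, were lower with Sema. Of 24 measured, 9 were lower and 0 higher, against 2.1% lower among all genes, with a median log2 fold change of -0.90. In 13 of the 24, all treated libraries lay below all vehicle libraries, where 15.8% of all genes did so. The 9 were Fos, Fosb, Junb, Egr1, Egr2, Atf3, Nr4a1, Btg2 and Myc. Fos, a subunit of the AP-1 factor, had 3.495, 4.83 and 3.17 CPM in TAC 8W + Sema 8W, against 34.2, 34.5 and 24.8 CPM in TAC 8W. The groups were wide apart, at a log2 fold change of -3.01 ± 0.27 (SE), or 8.08-fold lower (edgeR adjusted p = 0.00308). Atf3, a stress-induced factor of the ATF and CREB family, had 7.81, 8.38 and 5.32 CPM with Sema, against 37.1, 98.2 and 71.2 CPM in TAC 8W, where the vehicle libraries varied most (log2 fold change -3.25 ± 0.37, edgeR adjusted p = 0.00694).

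Nr4a1, the orphan nuclear receptor that the study followed up, had 55.5, 55.1 and 47.2 CPM in TAC 8W + Sema 8W, against 124, 144 and 198 CPM in TAC 8W. The treated libraries lay within a narrow range below all vehicle libraries, and Nr4a1 fell by 1.56 ± 0.24 on the log2 scale (edgeR adjusted p = 0.0176) and by 1.91 with the trend removed (adjusted p = 0.0154). The Nr4a1 call was lost without TAC 8W + Sema 8W replicate 1 or 3, without TAC 8W replicate 3, and with 15 or 21 libraries in the fit. Creb5, a CREB family factor that the study examined together with Nr4a1, had 0.744, 0.603 and 0.467 CPM with Sema, against 1.86, 1.32 and 1.18 CPM in TAC 8W. The groups did not overlap, but Creb5 did not pass the test (log2 fold change -1.26, edgeR adjusted p = 0.168, and -0.45 with the trend removed). It passed at limma-voom's unadjusted p under 0.1, as did 3925 genes in all. The study, whose methods name limma and a p under 0.1, reported lower Creb5 with Sema in its RNA-seq and in western blots. Egr1 had 3.495, 5.83 and 5.42 CPM with Sema, against 35.2, 16.3 and 33.9 CPM in TAC 8W (log2 fold change -2.54). Egr2 and Fosb were at -4.35 and -3.29 on the log2 scale, with under 1 CPM in every treated library, and Btg2 (-1.32), Myc (-1.35) and Junb (-1.10) differed less.

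The family did not move as a whole. Jun (-0.37), Jund (-0.10), Dusp1 (0.11) and Zfp36 (0.66) did not pass the test. With the trend removed, 9 of the 24 passed, all lower, and the median was -1.15. The count was 2, 4 and 1 without TAC 8W + Sema 8W replicates 1, 2 and 3 and 9, 12 and 3 without TAC 8W replicates 1, 2 and 3, and it was 2 when all 21 libraries entered the fit and 5 with 15 libraries.

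Among 27 heat shock chaperones, 4 were lower with Sema and 0 higher, against 2.1% lower among all genes. The median log2 fold change was -0.38, or -0.67 without TAC 8W + Sema 8W replicate 2. These were the inducible Hsp70 genes Hspa1a and Hspa1b, the inducible Hsp90 gene Hsp90aa1, and Dnaja1, a co-chaperone of Hsp70. Hspa1b had 3.57, 5.16 and 2.52 CPM in TAC 8W + Sema 8W, against 31.6, 117 and 34.6 CPM in TAC 8W, so that vehicle replicate 2 stood above the others (log2 fold change -4.00 ± 0.54, edgeR adjusted p = 0.0102). Hspa1a and Hspa1b are near-identical copies, and how reads were shared between them is uncertain. Hsp90aa1 had 44.8, 35.3 and 12.0 CPM with Sema, against 169, 172 and 182 CPM in TAC 8W, where treated replicate 3 was the lowest and the vehicle libraries lay close together (log2 fold change -2.50 ± 0.40, edgeR adjusted p = 0.0209). With the trend removed, 3 of the 27 passed, with Hsp90aa1 at -2.41, and Dnaja1 did not (adjusted p = 0.0892). The 4 calls became 1, 4 and 1 without TAC 8W + Sema 8W replicates 1, 2 and 3 and 8, 6 and 1 without TAC 8W replicates 1, 2 and 3.

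Genes of endoplasmic reticulum stress split. Herpud1, a membrane protein of the degradation machinery of the reticulum, had 464, 517 and 657 CPM in TAC 8W + Sema 8W, against 104, 150 and 155 CPM in TAC 8W (log2 fold change 2.0 ± 0.27, edgeR adjusted p = 0.0102, and 1.63 with the trend removed). Hsp90b1, the Hsp90 chaperone of the reticulum, had 103, 103 and 66.8 CPM with Sema, against 277, 250 and 320 CPM in TAC 8W, a log2 fold change of -1.64 (edgeR adjusted p = 0.0176). Chac1, an enzyme that degrades glutathione, was higher by 1.58 (edgeR adjusted p = 0.0377) but not with the trend removed (adjusted p = 0.215). The chaperone gene Hspa5 (-0.71) and the stress hormone gene Gdf15 (-1.54, edgeR adjusted p = 0.0616) did not pass. Of the 29 identifiers measured in this list, 3 passed, against 2.69% of all genes, and the median was -0.32. After the trend was removed, 2 passed and the median was -0.57. The calls numbered 1, 2 and 0 without TAC 8W + Sema 8W replicates 1, 2 and 3 and 4, 6 and 0 without TAC 8W replicates 1, 2 and 3.

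**Figure D3:**
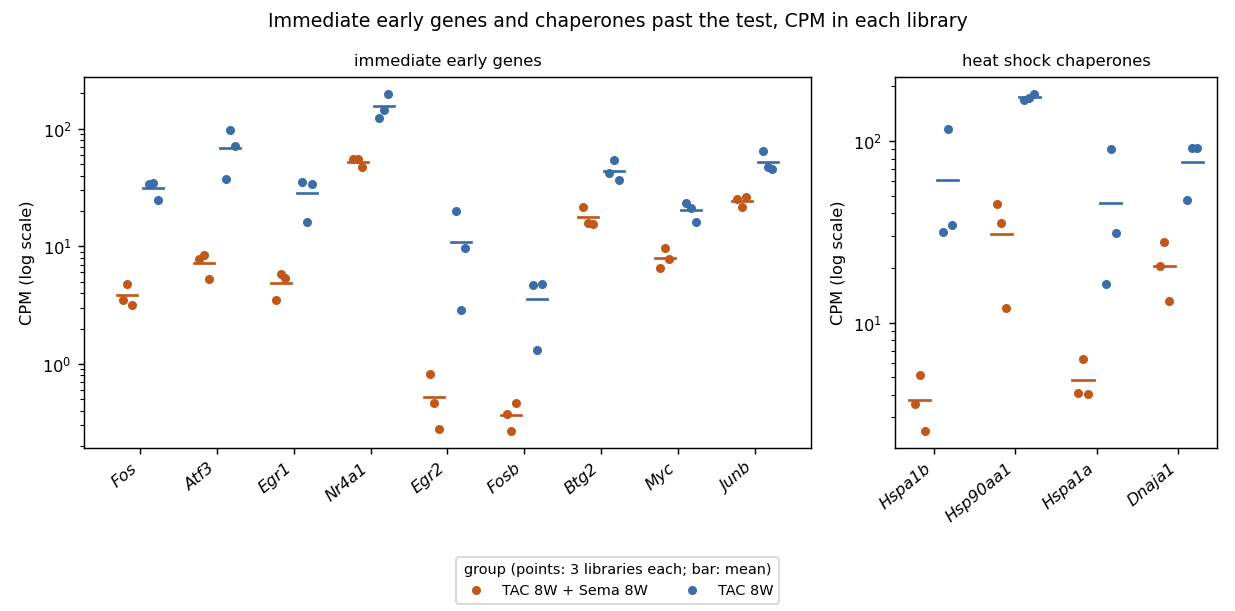
CPM (log axis) of the immediate early genes (left) and heat shock chaperones (right) past the test in each library, with TAC 8W + Sema 8W left of TAC 8W for each gene. Points are libraries, 3 per group, and bars are group means. All 13 genes lie lower with Sema in every library, with Fos at 3.17 to 4.83 CPM in TAC 8W + Sema 8W against 24.8 to 34.5 CPM in TAC 8W.

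Targets of the peroxisome proliferator-activated receptors (PPAR), which switch on genes of fat use, had a median log2 fold change of 0.85 over 19 genes measured, with 3 higher and 0 lower, against 0.592% higher among all genes. In 13 of the 19, all treated libraries lay above all vehicle libraries, where 12.7% of all genes did so. Ucp3, an uncoupling protein of muscle mitochondria, had 34.6, 32.7 and 18.2 CPM in TAC 8W + Sema 8W, against 3.25, 5.05 and 6.68 CPM in TAC 8W (log2 fold change 2.53 ± 0.35, edgeR adjusted p = 0.0103). Ucp2, a related uncoupling protein found in many tissues, had 238, 150 and 225 CPM with Sema, against 68.6, 39.9 and 69.4 CPM in TAC 8W (log2 fold change 1.78, edgeR adjusted p = 0.0209).

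These 3 calls held with the trend removed, where the list's median was 0.53. They became 1, 3 and 1 without TAC 8W + Sema 8W replicates 1, 2 and 3 and 7, 4 and 1 without TAC 8W replicates 1, 2 and 3. Pdk4, the kinase that shuts off pyruvate dehydrogenase, had 554, 660 and 235 CPM in TAC 8W + Sema 8W, against 223, 130 and 188 CPM in TAC 8W, with treated replicate 3 just above the highest vehicle library, and did not pass (log2 fold change 1.42, edgeR adjusted p = 0.072). Plin5, a coat protein of lipid droplets, was at 1.32 (edgeR adjusted p = 0.0506).

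The enzymes that carry the flux of fuel did not pass the test. In the list of fatty acid uptake and oxidation, 0 of 31 genes passed in edgeR and in limma-voom and 2 in DESeq2. Among all 11655 genes tested, 314 passed in edgeR, 214 in limma-voom and 1058 in DESeq2, and 2612 had an unadjusted p under 0.05 in edgeR. Of the 31, 5 had an unadjusted p under 0.05 in edgeR, all higher, with a median log2 fold change of 0.43 that was 0.19 with the trend removed and 0.18 without TAC 8W replicate 1. The 33 genes of the list, including those with too few counts to be tested, summed to 22000 to 22900 CPM in TAC 8W + Sema 8W. In TAC 8W they summed to 11700 CPM in replicate 1 and up to 22700 CPM in the others. For glycolysis and glycogen, 0 of 30 passed in edgeR and in limma-voom and 2 in DESeq2, with 4 at an unadjusted p under 0.05. For pyruvate entry and the TCA cycle, 0 of 31 passed in edgeR and in limma-voom and 3 in DESeq2, with 7 at an unadjusted p under 0.05. The median of glycolysis and glycogen was 0.26, and 0.02 with the trend removed. That of pyruvate entry and the TCA cycle was 0.20, and 0.22 with the trend removed, but -0.065 without TAC 8W replicate 1. Neither list had a call with the trend removed. Among metabolic genes the study names, the fatty acid transporter Cd36 was at -0.28, the transport protein Slc27a1 at 0.71 and the thioesterase Acot1 at 1.48. The glucose transporter genes Slc2a1 and Slc2a4 were at -0.47 and 0.80, the hexokinase gene Hk2 at -0.10 and the isocitrate dehydrogenase gene Idh2 at 0.76, none past the edgeR test. Slc27a1 and Slc2a4 passed in DESeq2 and in limma-voom with quality weights, and Acot1 in DESeq2. Slc27a1, Slc2a4, Acot1 and Idh2 passed at limma-voom's unadjusted p under 0.1. Cd36, Slc2a1 and Hk2 passed under no alternative. Ppargc1a, a coactivator of mitochondrial genes, had 19.3, 45.2 and 15.9 CPM with Sema, against 13.2, 5.60 and 10.51 CPM in TAC 8W, and did not pass (log2 fold change 1.44, edgeR adjusted p = 0.0966). It passed with the trend removed (2.02, adjusted p = 0.0445), in DESeq2, in limma-voom with quality weights and with no count filter.

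Of 21 genes that respond to glucocorticoids or FoxO factors, 2 were higher and 2 lower with Sema, against 0.592% higher and 2.1% lower among all genes, and the median log2 fold change was 0.61, or 0.53 with the trend removed. Klf15, a glucocorticoid-induced factor that restrains cardiomyocyte growth and drives amino acid and lipid use, had 58.6, 60.9 and 79.6 CPM in TAC 8W + Sema 8W, against 16.5, 17.4 and 18.1 CPM in TAC 8W. The vehicle libraries differed little from each other, and Klf15 was higher by 1.94 ± 0.22 on the log2 scale (SE, edgeR adjusted p = 0.00694), or by 1.5 with the trend removed (adjusted p = 0.01). Fkbp5, a co-chaperone of the glucocorticoid receptor, had 65.7, 73.2 and 58.1 CPM with Sema, against 30.2, 8.68 and 18.7 CPM in TAC 8W (log2 fold change 1.76, edgeR adjusted p = 0.0403). Irs2, an insulin receptor substrate that FoxO induces, had 7.29, 15.2 and 9.71 CPM with Sema, against 26.4, 28.8 and 23.6 CPM in TAC 8W, and Gadd45g, a stress-induced growth arrest gene, 14.7, 7.44 and 13.2 CPM against 30.9, 33.4 and 23.4 CPM. They fell by 1.29 and 1.31 on the log2 scale, and Irs2 did not pass with the trend removed (adjusted p = 0.0503). The 4 calls became 1, 2 and 1 without TAC 8W + Sema 8W replicates 1, 2 and 3 and 5, 5 and 1 without TAC 8W replicates 1, 2 and 3, and 1 when all 21 or 15 libraries entered the fit.

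Metallothioneins and acute phase genes had 3 of 14 members higher and 0 lower, against 0.592% higher among all genes. The median was 0.48, and 0.19 with the trend removed, where 2 of the 14 passed. It was 0.24 without treated replicate 3, 0.15 without vehicle replicate 3 and 1.19 without vehicle replicate 1. Lcn2, which encodes lipocalin 2, a protein that binds bacterial iron carriers, had 35.6, 14.9 and 23.8 CPM in TAC 8W + Sema 8W, against 4.55, 3.52 and 2.95 CPM in TAC 8W (log2 fold change 2.73 ± 0.36, edgeR adjusted p = 0.00959). Mt1, a metallothionein that binds zinc and copper, had 747, 608 and 751 CPM with Sema, against 241, 214 and 174 CPM in TAC 8W (log2 fold change 1.74, edgeR adjusted p = 0.0124, and 1.17 with the trend removed, adjusted p = 0.0745). Lrg1, a secreted leucine-rich glycoprotein, was higher by 1.58 (edgeR adjusted p = 0.0327), while Mt2 (1.41) and the haptoglobin gene Hp (1.78) did not pass. Serpina3n, a protease inhibitor of the acute phase, had 55.3, 38.7 and 99.5 CPM with Sema, against 332, 11.9 and 13.5 CPM in TAC 8W, and its direction rested on vehicle replicate 1, with a log2 fold change of -0.89 over all 6 libraries and 2.32 without it. The 3 calls of the list became 1, 3 and 0 without TAC 8W + Sema 8W replicates 1, 2 and 3, 6, 4 and 1 without TAC 8W replicates 1, 2 and 3, and 0 when all 21 libraries entered the fit.

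**Figure D4:**
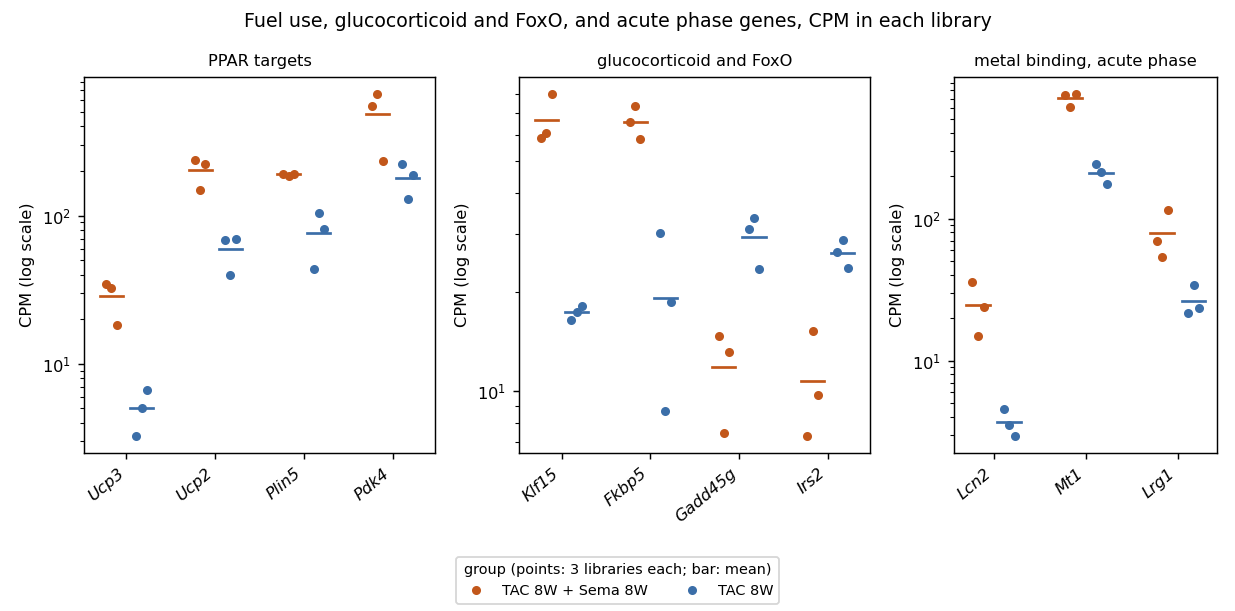
CPM (log axis) of metabolic genes and of hormone-responsive and acute phase genes in each library, with TAC 8W + Sema 8W left of TAC 8W for each gene. Points are libraries, 3 per group, and bars are group means. Klf15 lies at 58.6 to 79.6 CPM in TAC 8W + Sema 8W against 16.5 to 18.1 CPM in TAC 8W, and Pdk4, which did not pass the test, at 235 to 660 CPM against 130 to 223 CPM.

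The largest rises lay partly outside these lists. Adh1, an alcohol dehydrogenase that also oxidises retinol, had 63.7, 57.6 and 96.6 CPM in TAC 8W + Sema 8W, against 8.08, 2.97 and 9.73 CPM in TAC 8W, 10.4-fold higher (log2 fold change 3.37 ± 0.40, edgeR adjusted p = 0.00703). Inmt, a methyltransferase of tryptamine and related amines, had 21.1, 12.0 and 23.9 CPM with Sema, against 0.883, 2.86 and 2.26 CPM in TAC 8W (log2 fold change 3.31 ± 0.45). Timp4, the inhibitor of matrix metalloproteinases that is most abundant in heart, had 86.1, 73.4 and 86.5 CPM with Sema, against 15.6, 16.4 and 26.2 CPM in TAC 8W (log2 fold change 2.08 ± 0.26, edgeR adjusted p = 0.00703). The log2 fold changes were, with the trend removed, 2.98 for Adh1, 2.82 for Inmt and 2.15 for Timp4, all past the test. Each was called in 5 of the 6 fits that left out a library.

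Pim3, a serine/threonine kinase of the survival-promoting Pim family, had 85.6, 83.1 and 130 CPM in TAC 8W + Sema 8W, against 22.9, 16.4 and 19.8 CPM in TAC 8W (log2 fold change 2.33 ± 0.26, edgeR adjusted p = 0.00694). Klhl38, a kelch-like protein of striated muscle, had 31.8, 39.5 and 50.7 CPM with Sema, against 6.78, 8.24 and 6.39 CPM in TAC 8W (log2 fold change 2.51 ± 0.26, edgeR adjusted p = 0.00458). Bcl2l1, which encodes the anti-apoptotic protein Bcl-xL and was singled out after its values were seen, had 79.4, 67.1 and 79.5 CPM with Sema, against 21.6, 15.7 and 21.5 CPM in TAC 8W (log2 fold change 1.94 ± 0.22, edgeR adjusted p = 0.00697). These 3 genes were called without each library in turn and with the trend removed. Of the other large rises, the arrestin-like gene Arrdc2 (2.44) passed with the trend removed, and the interferon-induced GTPase gene Igtp (2.12), the carbonic anhydrase gene Car4 (2.04) and the fetuin gene Ahsg (2.01) did not, at adjusted p of 0.088, 0.09 and 0.0779.

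The natriuretic peptide genes, markers of hypertrophy, did not pass the test. Nppa, the gene of atrial natriuretic peptide, had 7206, 2099 and 3155 CPM in TAC 8W + Sema 8W, against 9049, 9970 and 2869 CPM in TAC 8W, so the groups overlapped (log2 fold change -0.81, edgeR adjusted p = 0.392). Nppb, the gene of brain natriuretic peptide, was at -0.42 (edgeR adjusted p = 0.448). The atrial marker list, which shares Nppa, summed to 2110 to 7690 CPM with Sema and 2880 to 10100 CPM in TAC 8W. Of 13 hypertrophy and fetal genes, 2 were lower and 0 higher, against 2.1% lower among all genes, namely Nes, the intermediate filament nestin (29.1, 34.6 and 26.9 CPM with Sema, against 93.2, 66.0 and 115 CPM in TAC 8W), and Xirp2, an actin-binding protein of intercalated discs. Nes fell by 1.6 on the log2 scale and by 1.80 with the trend removed (adjusted p = 0.0165). The stretch-induced Ankrd1 was at -1.01 and did not pass. Of the 13, 1 passed with the trend removed. The list had 1, 1 and 0 calls without TAC 8W + Sema 8W replicates 1, 2 and 3 and 3, 2 and 0 without TAC 8W replicates 1, 2 and 3.

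In the sarcomere and its membranes, Tcap, the telethonin that caps titin at the Z-disc, had 2335, 1631 and 2818 CPM in TAC 8W + Sema 8W, against 504, 902 and 562 CPM in TAC 8W (log2 fold change 1.79, edgeR adjusted p = 0.0309, and 1.21 with the trend removed, adjusted p = 0.0314). Xirp2 had 312, 158 and 114 CPM with Sema, against 1757, 817 and 1006 CPM in TAC 8W (log2 fold change -2.62), and Nebl, the Z-disc protein nebulette, was at -2.25. Trdn, the triadin that links calsequestrin to the calcium release channel, had 15.3, 17.3 and 9.52 CPM with Sema, against 70.4, 60.2 and 106 CPM in TAC 8W (log2 fold change -2.48 ± 0.31, edgeR adjusted p = 0.00703). The exons of Trdn, Xirp2 and Nebl had a GC content of 35.6%, 42.2% and 41.3%, and none of the 3 passed with the trend removed, at adjusted p of 0.0669, 0.0526 and 0.0789. Kcnh2, a potassium channel of cardiac repolarisation, was higher by 1.31 (edgeR adjusted p = 0.0284), and not with the trend removed (adjusted p = 0.0709). In the list of 22 Z-disc and stretch sensing genes, 3 passed, 13.6% against 2.69% of all genes. With the trend removed 1 passed, where 0.755% of all genes did. The 3 calls became 1, 1 and 0 without TAC 8W + Sema 8W replicates 1, 2 and 3 and 3, 3 and 1 without TAC 8W replicates 1, 2 and 3.

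Among 34 genes of blood vessel development, 3 were lower with Sema and 0 higher, against 2.1% lower among all genes. The median log2 fold change was -0.38, or -0.48 with the trend removed. It was -0.24, -0.60 and -0.32 without TAC 8W + Sema 8W replicates 1, 2 and 3 and -0.13, -0.72 and -0.17 without TAC 8W replicates 1, 2 and 3. Vegfa, the main growth factor of endothelial cells, had 33.8, 61.2 and 40.5 CPM in TAC 8W + Sema 8W, against 141, 77.1 and 126 CPM in TAC 8W (log2 fold change -1.35, edgeR adjusted p = 0.0466). Its co-receptor gene Nrp1 was at -1.46 and the endothelial secreted protein gene Esm1 at -2.93, the last at 0.0744 to 0.402 CPM with Sema and 1.38 to 1.76 CPM in TAC 8W. With the trend removed 0 of the 34 passed, with adjusted p of 0.0532 for Vegfa, 0.0921 for Nrp1 and 0.0807 for Esm1. The summed level of endothelial markers overlapped between the groups, as given above. The calls numbered 0 without any 1 of the TAC 8W + Sema 8W libraries, and 3, 7 and 0 without TAC 8W replicates 1, 2 and 3.

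Many of the largest falls were in genes of low GC content, some of them long, and most of these did not pass with the trend removed, although their fold changes stayed large. Kif5b, a kinesin motor, was at -3.37, Rasa1, a Ras GTPase-activating protein, at -3.17, Erbin, a scaffold protein of ErbB2, at -3.15, and Aspn, the matrix proteoglycan asporin, at -4.05, with exons of 2354 bases in Aspn and 7320 to 7981 bases in the other 3. Rock2, a kinase downstream of RhoA whose exons had a GC content of 39.8%, had 4.76, 3.28 and 1.31 CPM in TAC 8W + Sema 8W, against 49.3, 8.57 and 24.0 CPM in TAC 8W, with treated replicate 3 lowest and vehicle replicate 1 highest. Removing the trend gave log2 fold changes of -2.59 for Kif5b (adjusted p = 0.0576), -2.09 for Rasa1, -2.27 for Erbin, -3.04 for Aspn (adjusted p = 0.107) and -1.99 for Rock2 (adjusted p = 0.0869), none past the test. Mphosph10 (-3.00, and -2.50 with the trend removed), Ogn (-2.98 and -2.12) and Ppig (-2.97 and -1.97) did not pass then either, whereas Resf1 did (-2.94, and -2.09 with the trend removed, adjusted p = 0.0314).

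Calls in the list of RNA splicing factors were also lost. Of 34 genes, 6 were lower and 0 higher, against 2.1% lower among all genes and 11.1% lower in the decile of lowest GC content. The median log2 fold change was -0.82, and the median GC content and exon length of the list were 41.2% and 7140.5 bases. Luc7l3, a component of the U1 particle, had 3.64, 4.83 and 2.52 CPM in TAC 8W + Sema 8W, against 16.6, 11.1 and 23.0 CPM in TAC 8W (log2 fold change -2.20, edgeR adjusted p = 0.0209), and Rbm25 (-1.98), Ccnl1 (-1.85) and Rbm39 (-1.56) also passed. With the trend removed, the median was -0.21 and 0 of the 34 passed. The calls numbered 0, 3 and 0 without TAC 8W + Sema 8W replicates 1, 2 and 3 and 6, 14 and 0 without TAC 8W replicates 1, 2 and 3. For the immediate early genes, the median GC content was 54.8%, against 49.81% for all genes, and its relation to their fall was not tested.

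**Figure D5:**
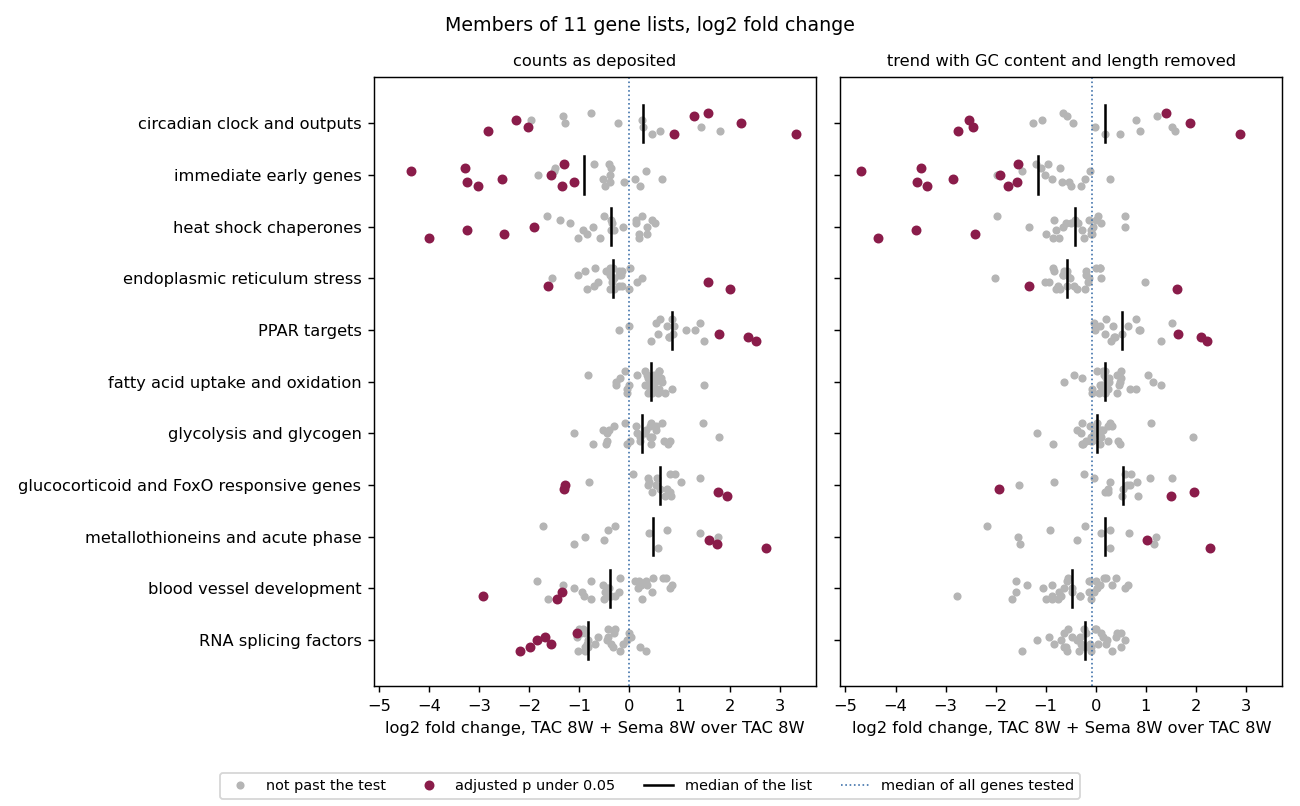
Log2 fold change of each member of 11 gene lists, TAC 8W + Sema 8W over TAC 8W, on the counts as deposited (left) and after the GC and length trend was removed (right). Points are genes, dark where the adjusted p was under 0.05, black bars are list medians and the dotted line is the median of all genes. The median of RNA splicing factors lies at -0.82 on the left and -0.21 on the right, and that of immediate early genes at -0.90 and -1.15.

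Of the lists set apart, the extracellular matrix had 1 of 53 genes lower past the test, against 2.1% of all genes. At an unadjusted p under 0.05 in edgeR, 30 of the 53 were lower, where 2612 of all 11655 genes had such a p in either direction. All 53 fold changes were negative, with a median of -1.16, or -1.12 with the trend removed. The nuclear respiratory chain had 0 of 74 past the test in edgeR and 0 at an unadjusted p under 0.05, with a median of 0.45, or 0.18 with the trend removed. Of the genes of mitochondrial DNA, 2 of 13 were lower, against 2.1% lower among all genes, and 0 with the trend removed.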

How the data were processed

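Heart RNA was sequenced. The labels name a VAHTS mRNA-seq library kit and the study's reporting notes also name an NEBNext kit, without saying which libraries it was used for. The authors deposited 1 table of raw counts per gene, made by trimming with cutadapt 1.11, alignment with HISAT2 to mm10 and counting with featureCounts 1.6.0, and the submitters' notes also name edgeR. Whether counting used strand, and which annotation it used, is not given in the sources used here, so reads of overlapping and antisense genes cannot be told apart. Of the 22136 identifiers in the table, 22118 were paired with a symbol.

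The 6 libraries were fitted with edgeR 4.0.16 (R 4.3.3): genes were kept by its filter with a minimum count of 10 and a minimum total of 15, libraries were scaled by TMM, and the quasi-likelihood test was adjusted by the Benjamini-Hochberg method over all 11655 genes with a threshold of 0.05. The common biological coefficient of variation was 30.2%. The SE of a log2 fold change was taken from the F statistic. In a test on simulated data of this comparison with 11655 genes, 80% of genes changed by 2 on the log2 scale were recovered and 9% of those changed by 1. These simulated libraries had no trend with GC content, unlike the real ones. The changed genes were drawn only from those above a minimum expected count. GC content and length were taken from the union of GENCODE exons on GRCm38, and the trend was removed with natural splines of 5 degrees of freedom per library, entered as offsets. Motifs were searched in RefSeq start windows.

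Gene lists, named genes and members were chosen with earlier results of these data known, so lists are described by counts and medians without a test. Named genes were, in each direction, the 15 with the largest change past the threshold with at least 5 CPM and no overlap, up to 4 members of each list with the smallest p, and genes the study names. Other members of a list are named with their values where the text gives them, and some members are counted but not reported here by name. Alternatives were limma 3.58.1 (voom), DESeq2 1.42.0, other scalings and filters, more libraries in the fit, a replicate block, the trend removed and each library left out. Replicates differed by more than sampling noise, with a chi-square per degree of freedom of 30.7 to 132.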

Additional observations from a re-analysis of the deposited data

How the results depend on the processing

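The 314 genes became 1058 in DESeq2, 2588 in limma-voom with quality weights, 735 with no count filter and 517 with all 21 libraries in the fit, where 9.48% were higher and the median log2 fold change of all genes was -0.119. They became 88 without the GC and length trend and 66 without the GC trend alone, and 3925 genes passed at limma-voom's unadjusted p under 0.1. The study's methods name limma and a p under 0.1, without saying whether voom was used. Leaving out 1 library gave 9 to 1181 genes. These fits hold 1 group of 2 libraries, which widens the error, and the cause of the differences between them was not tested. The other scalings, the robust prior, the stricter filter, limma-voom, 15 libraries and the fit without mitochondrial genes gave 214 to 467 genes. Dbp, Klf15, Klhl38, Pim3 and Bcl2l1 passed under all 22 alternatives, while Arntl and Fos did not with 15 or 21 libraries in the fit. Serpina3n, not past the test at -0.89, turned to 1.68 with quality weights, and ran from -1.42 to 2.32 with single libraries left out, where 2.32 is without TAC 8W replicate 1. In the simulated test, which held no trend with GC content, most changes of 1 on the log2 scale were missed at this depth and replicate number.

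A replicate block gave 388 genes, of which 269 were among the 314, and 46 when the GC and length trend was removed as well. The deviations of libraries with the same number correlated at -0.057, -0.338 and 0.082 for the numbers 1 to 3, and those with different numbers at -0.227 to 0.278. Deviations taken from means of 3 libraries cannot show whether a pairing existed. The study names no such block.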

Other observations

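A few genes outside the groups described above also stood apart. Gja1, the gene of connexin 43, the main gap junction protein of ventricular muscle, was singled out after its values were seen. It had 24.4, 35.4 and 20.9 CPM in TAC 8W + Sema 8W, against 153, 125 and 104 CPM in TAC 8W, at a log2 fold change of -2.24 ± 0.27 (SE), for which the edgeR adjusted p was 0.00703, and of -1.74 with the GC content and length trend removed (adjusted p = 0.01). The call held in 5 of the 6 fits that left out a library. Of 28 genes of mitochondrial dynamics and biogenesis, 1 passed, 3.57% against 2.69% of all genes. It was Yme1l1, a protease of the inner mitochondrial membrane, at -2.06 (edgeR adjusted p = 0.0338), but not with the trend removed (adjusted p = 0.0997). Ppargc1a was then the 1 gene of the list that passed, at 2.02 (adjusted p = 0.0445). Exons of Yme1l1 had a GC content of 37.4%.

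Genes of division and of immune signals gave few calls, several of them at low counts. Mki67, a marker of dividing cells, had 0.372, 0.268 and 0.187 CPM in TAC 8W + Sema 8W, against 5.62, 1.43 and 3.05 CPM in TAC 8W. The log2 fold change was -3.58 (edgeR adjusted p = 0.0267), and -3.22 with the trend removed (adjusted p = 0.0425). Mki67 was the 1 gene of 27 in the cell cycle list that passed, 3.7% against 2.69% of all genes. Top2a (-2.43) did not pass. Il6, an inflammatory cytokine, had 0 counts in the 3 TAC 8W + Sema 8W libraries and 4.00, 0.989 and 0.884 CPM in TAC 8W, at least 8.33-fold lower against a floor of 3 counts per library (edgeR adjusted p = 0.0324, and 0.0837 with the trend removed). The chemokine gene Ccl2 was at -1.91 and did not pass. Etv4, a factor downstream of ERK, was at -2.24 on the log2 scale (edgeR adjusted p = 0.0424), but not with the trend removed (adjusted p = 0.0526). Among 37 interferon and antigen presentation genes Igtp alone passed, 2.7% of the list against 2.69% of all genes. The treated libraries differed widely in Igtp, with 52.2, 16.4 and 78.3 CPM in TAC 8W + Sema 8W, against 10.4, 10.99 and 12.5 CPM in TAC 8W. Calls for Mki67, Igtp, Il6 and Etv4 held in 2, 2, 1 and 1 of the 6 fits that left out a library.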
